A study of Mus musculus with 5 samples.

Results

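Of 58192 genomic regions that held a binding event in any of 4 ChIP-seq lists, 2053 held events of the induced, V5-tagged Olig2 list alone. They are called V5-only regions here. Events on the 19 autosomes and X were pooled over the lists and sorted. Events whose gap to the previous one was 200 bp or less were chained into 1 region, and a region was kept when every event in it came from the V5 Olig2 list. The regions were thus chosen by the IP and control reads that put an event into a list. The V5-only regions held 2075 of the 11067 V5 Olig2 events used (18.7%) and were 2053 of the 10290 regions with a V5 Olig2 event (Wilson 95% interval of the percentage 19.2 to 20.7). They took 9.62% of the IP reads that the V5 Olig2 list assigned to events.

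Olig2 is a basic helix-loop-helix transcription factor that binds E-box DNA as a dimer. In the ventral spinal cord it marks motor neuron progenitors, where it acts largely as a repressor of other progenitor fates, and later it is needed for oligodendrocytes. ChIP-seq reads the DNA that an antibody pulls down together with a crosslinked protein. An epitope tag such as V5 is a short peptide that lets a standard antibody recover a factor without an antibody to the factor itself.

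All cells were Ainv15 mouse embryonic stem cell lines carrying a doxycycline-inducible tagged factor, grown as embryoid bodies. Retinoic acid at 1 µM and a hedgehog agonist at 0.5 µM, given from day 2, patterned them toward motor neurons. The V5 Olig2 list came from day 4 progenitor motor neurons of the inducible V5-tagged Olig2 line, with 3 µg/ml doxycycline and anti-V5. The native Olig2 list came from day 4 cells of the same line without doxycycline and an antibody to Olig2 itself. Both Hoxc9 lists came from day 5 cells with doxycycline. One was of inducible V5-tagged Hoxc9 with anti-V5, as 1 list for 2 libraries, and the other of inducible Flag-tagged Hoxc9 with anti-Flag. Hoxc9 is a homeodomain factor of thoracic identity. The mock anti-V5 ChIP from day 4 cells of the Olig2 line without doxycycline was not analysed here.

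On these chromosomes there were 15697 events for native Olig2 and 11067 for V5 Olig2. Hoxc9 had 11065 events with V5 and 49278 with Flag. Each event is a single mm9 base with the authors' estimated IP and control reads, their fold, and a −log10 q. No condition had a second list to serve as a replicate, and total library depth is unknown. List membership follows from the IP and control reads of the 4 lists, so the reads, folds and q values of the V5-only regions are a description. No p-value was computed for any comparison, and Wilson 95% intervals cover counting error only. The native and the V5 list differ in antibody and in induction, and the effects of these on the V5-only set cannot be told apart.

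The V5-only regions were mostly weak single events. Of the 2053, 22 had 2 V5 Olig2 events and the others had 1, so 1.07% held 2 or more, beside 6.95% of all V5 Olig2 regions. IP reads at the strongest event of a region ran from 15 to 160, with a median of 32 and quartiles of 24.4 and 41. In the 5427 regions that held events of both Olig2 lists and no Hoxc9 list, called shared Olig2 regions here, the V5 list gave a median of 52 and quartiles of 38 and 79. The ranges overlapped widely, and few V5-only regions reached the upper part of the shared range. Just 10 V5-only regions (0.487%) had 100 or more IP reads, beside 15.6% of all V5 Olig2 regions.

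The share of V5 Olig2 regions found in no other list fell with IP reads at every step. In the weakest of 10 equal groups, with 15 to 25.3 IP reads, 575 of 1029 regions were V5-only (55.9%, 52.8 to 58.9). In the fifth group, 18.7% were V5-only (16.4 to 21.2), and in the ninth 1.55% (0.959 to 2.51). In the strongest group, from 128 IP reads upward, 5 of 1029 were V5-only (0.486%, 0.208 to 1.13). IP reads were among the values that chose the regions, so this gradient is a description of them.

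**Figure D1:**
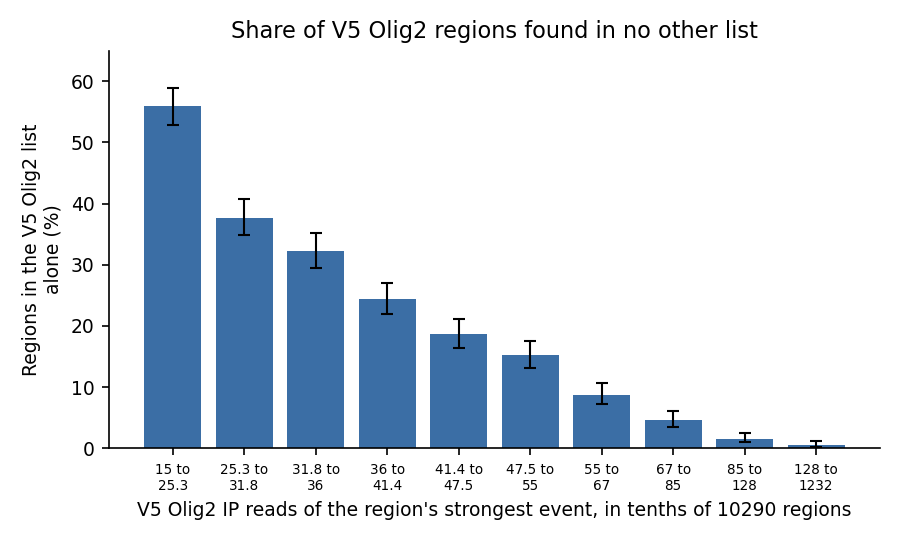
Percent of regions with a V5 Olig2 event that held no event of another list (bars, with Wilson 95% intervals), in 10 equal groups by V5 Olig2 IP reads on the horizontal axis. The share falls from 55.9% in the weakest group to 0.486% in the strongest.

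The deposited q values placed most V5-only regions close to the listing limit. The lowest −log10 q in the V5 Olig2 list was 2.01, and the V5-only median was 2.76, against 5.23 in shared Olig2 regions. A −log10 q under 3 was listed for 1190 V5-only regions (58%), beside 27.7% of all V5 Olig2 regions. A −log10 q of 5 or more was listed for 237 (11.5%), beside 46.1% of all. Those 237 had a median of 56 IP reads, 2.3 control reads and a fold of 23.2. The nearest native Olig2 event lay over 10 kb away for 148 of them (62.4%), beside 68.4% of all V5-only regions, and within 1 kb for 43 (18.1%), beside 12.6% of all.

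Over all IP reads, the share of regions with a high fold of IP over control was close in V5-only and all V5 Olig2 regions. A fold of 10 or more was listed for 1647 of the 2053 (80.2%, 78.4 to 81.9), beside 80.5% of all V5 Olig2 regions. Median folds were 17.8 in V5-only and 17.4 in shared Olig2 regions. These shares mix regions of different IP reads. At 15 to under 25 IP reads, every listed region of either set had a fold of 10 or more, and that band held 538 of the 2053 V5-only and 235 of the 5427 shared Olig2 regions. At the other end, 18 V5-only regions (0.877%) had a fold under 5, beside 0.865% of all. V5-only regions with at least the median IP reads of all V5 Olig2 regions (47.5) and a fold of 10 or more numbered 189 (9.21%), beside 40.4% of all.

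Over all IP reads, control reads were lower at V5-only regions. Their median was 2.1, with quartiles of 0.6 and 3.4, against 3.1 in shared Olig2 regions (2.1 and 5.2). Control reads were listed at 0 for 465 V5-only regions (22.6%), beside 10.7% of all V5 Olig2 regions. Control reads of 10 or more were listed for 38 (1.85%), beside 4.54% of all. Within bands of IP reads, the V5-only median of control reads was lower in none. At 15 to under 25 IP reads both medians were 0. At 80 or more they were 5.45 in V5-only and 5.2 in shared Olig2 regions. At 35 to under 45 IP reads, both sets had a median of 3.1 control reads, and at 45 to under 60 both had 4.1. From 25 to under 35 IP reads the V5-only median was 2.1 and the shared median 1.6, and from 60 to under 80 they were 5.2 and 4.1, so that the V5-only regions had more control reads in both bands.

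Within bands of IP reads from 25 upward, the share with a fold of 10 or more was lower in V5-only regions, with intervals clear of each other in 2 of the 5 bands. The fold comes from the reads that chose the regions, so these shares and intervals are a description and not a test. At 45 to under 60 IP reads, it was listed for 152 of 272 V5-only regions (55.9%, 49.9 to 61.7) and for 771 of 1163 shared Olig2 regions (66.3%, 63.5 to 69). At 80 or more IP reads, the shares were 24 of 30 (80%, 62.7 to 90.5) and 92.8% (91.3 to 94.1). Median IP reads in that open band were 93 and 117, so it is not closely matched. In the other 3 bands the intervals overlapped. The shares were 91% (88.6 to 93) against 93.6% (91.6 to 95.1) at 25 to under 35 IP reads and 60.7% (56.4 to 64.9) against 64.8% (61.8 to 67.6) at 35 to under 45. At 60 to under 80 they were 65.4% (54.3 to 75) against 73.7% (70.7 to 76.5).

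The event tables also hold a score named IPvsEMP, which sets the read profile of an event against an empirical profile, as its header reads. In the documentation of this kind of event caller, a higher value stands for a profile farther from the average event. The deposited V5 Olig2 scores ended at -0.45. Those of regions in the V5 Hoxc9 list alone or the Flag Hoxc9 list alone also ended at -0.45. Native scores reached -0.145 in regions of the native list alone and -0.274 in shared Olig2 regions. The native list thus did not end at the same score, and scores are compared only within a list. V5-only regions had higher scores than shared Olig2 regions in each of the 6 bands of IP reads. At 45 to under 60 IP reads the medians were -0.616 and -0.685, and at 35 to under 45 they were -0.637 and -0.686. The smallest gap was at 25 to under 35 IP reads, with -0.631 against -0.678.

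The same score was read in the other lists at 25 to under 45 IP reads, where the V5 Olig2 list gave -0.634 in V5-only and -0.682 in shared regions. In the native list, regions of that list alone had a median of -0.731 and shared Olig2 regions -0.752. In the V5 Hoxc9 list, regions of that list alone had -0.593 and regions of both Hoxc9 lists alone -0.617. In the Flag Hoxc9 list the medians were -0.637 and -0.643. The medians thus differed in the same direction in each list, though by little in the Flag Hoxc9 list. In this band, 11.9% of V5-only regions scored above -0.5 (10.1 to 13.9), against 6.46% of shared regions (5.41 to 7.69). The V5 Hoxc9 list gave 19.3% (17.4 to 21.3) against 11.5% (10.2 to 12.9). The native list gave 6.30% (5.31 to 7.47) against 4.52% (3.68 to 5.53). In the Flag Hoxc9 list the shares were 10.6% (10.1 to 11.2) and 10.4% (8.27 to 12.9). Intervals were clear of each other in both V5 lists and overlapped in the native and Flag lists. A higher score is therefore not particular to the V5-only Olig2 regions, since regions of the V5 Hoxc9 list alone had it too. Whether the profile bears on the absence from the other lists was not tested.

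**Figure D2:**
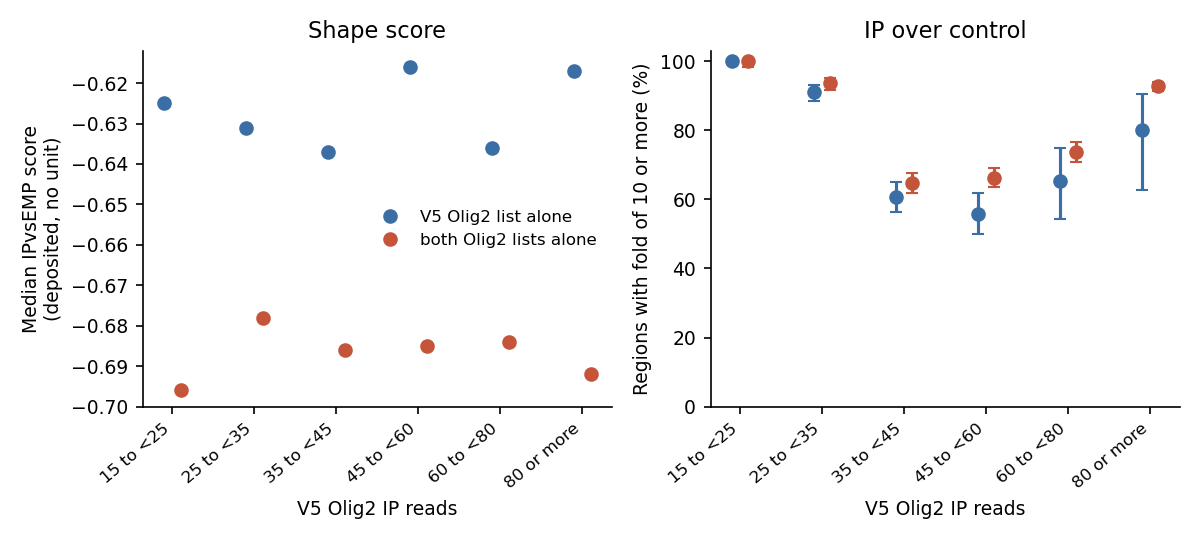
Median IPvsEMP score (left, no unit) and percent of regions with a fold of 10 or more (right, with Wilson 95% intervals) in bands of V5 Olig2 IP reads, for V5-only (blue) and shared Olig2 regions (red). Blue score medians lie between -0.637 and -0.616 and red ones between -0.696 and -0.678.

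The strongest V5-only region was the event at 181408363 on chromosome 2. It had 160 IP reads and 3.1 control reads (fold 51.5), and 685 V5 Olig2 events had more IP reads. Its nearest native event lay 85578 bp away. The next region ran from 15875831 to 15876003 on chromosome 19 and held a weak and a strong event, with 33.9 and 154.7 IP reads. A native event with 65 IP reads lay 491 bp from it, at 15876494. At that native event the V5 list had one of its own, 477 bp from the region, with 113.5 IP reads. This V5-only region thus stood beside a shared Olig2 region and was stronger than its neighbour in the V5 list.

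The following regions were mostly isolated from native Olig2 events. The event at 122852571 on chromosome 14 had 148.6 IP and 8.5 control reads, with the nearest native event 26082 bp away and a Flag Hoxc9 event of 81.5 IP reads 1119 bp away. That at 15273594 on chromosome 10 had 143 IP and 7.3 control reads and lay 38603 bp from a native event. The event at 35545446 on chromosome 13 had 133 IP and 4.1 control reads, and no native event within 382302 bp. The last lay farthest of the 10 from native Olig2 binding, and the next V5 Olig2 region outside the V5-only set was 638917 bp away.

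Among the others of the 10, the event at 166425729 on the X chromosome stood apart by its 17.8 control reads beside 121.3 IP reads (fold 6.8). The other 9 had between 2.1 and 8.5 control reads and folds from 14.9 to 51.5. The region from 93031775 to 93031951 on chromosome 8 held 2 events, with 118.6 and 73.4 IP reads, and lay 11043 bp from a native event. The event at 90012287 on chromosome 16 had 111 IP reads and lay 60818 bp from a native event. The remaining regions were at 83818940 on chromosome 4, with 104 IP reads and a fold of 50.2, and at 85797569 on chromosome 10, with 102.4 IP reads and a fold of 18. Their nearest native events were 29429 and 29869 bp away.

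**Figure D3:**
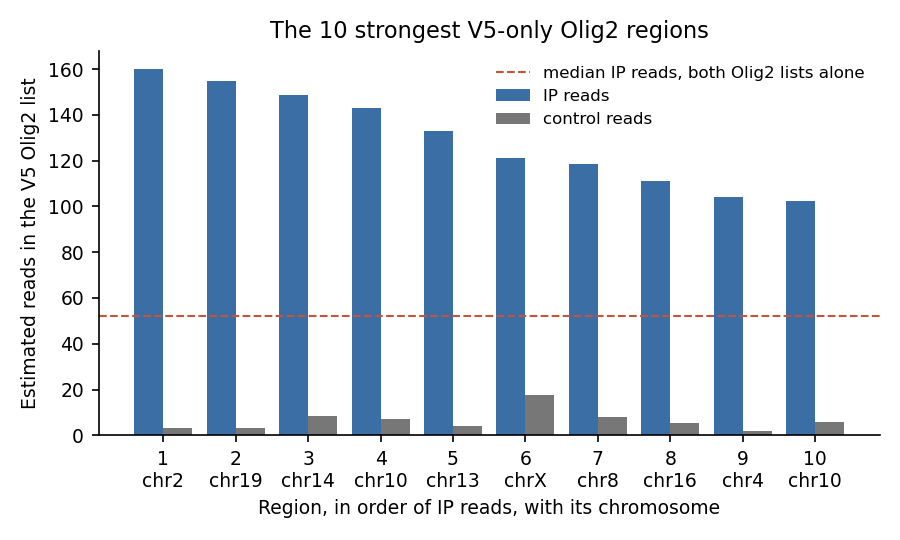
Estimated IP reads (blue) and control reads (grey) at the strongest event of the 10 V5-only regions with most IP reads, in order, with the chromosome below. The dashed line is the median of 52 V5 IP reads in shared Olig2 regions, and the sixth region, on X, has the most control reads (17.8).

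The V5-only regions with 2 events and most IP reads included those on chromosomes 19 and 8 described above. The region from 41769695 to 41769860 on chromosome 14 had 38.4 and 82.8 IP reads at its events and a native event 445 bp away. That from 99663258 to 99663372 on chromosome 10 had 76.6 and 31.4 IP reads and no native event within 72330 bp. On chromosome 8, the region from 92600509 to 92600695 had 65.5 and 48.5 IP reads and 9.7 control reads at the stronger event. Both kinds of place, beside native binding and far from it, thus held such pairs.

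The V5-only regions with most control reads had low folds. The event at 166428105 on X had 23.7 control and 82.9 IP reads (fold 3.5), and lay in the same stretch as the strong X event at 166425729. That at 122277673 on chromosome 14 had 21.8 control and 77 IP reads (fold 3.5), and that at 45719129 on chromosome 18 had 20.7 control and 85 IP reads (fold 4.1). At 43669106 on chromosome 18, 17.6 control reads stood beside 79 IP reads, with a native event of 23 IP reads 316 bp away. Of these 4, the X and both chromosome 18 events had a native event within 1220 bp.

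The stretch of X around its pair of V5-only regions was rich in control reads in other lists too. It was looked at after the values were seen. The native event at 166427084, between both V5-only events, had 29.2 IP reads over a control of 5.4. The Flag Hoxc9 event at 166430395 had 170.5 IP and 52.3 control reads, the most control reads of any Flag event. The neighbouring V5 Olig2 event at 166435392 shared its region with a Flag event and had 65.4 IP and 10.6 control reads. The part of control-rich sequence in these V5-only calls was not tested.

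The weakest V5-only regions were at 57064972 on chromosome 19 with 15 IP reads, and at 124807108 on chromosome 8 and 116207783 on chromosome 9 with 15.1 each. Control reads were listed at 0 at all 3, so their fold has no interpretable size. The events on chromosomes 8 and 9 were nevertheless near native events, 1192 and 329 bp away. The first of these native events was strong, with 117.8 native IP reads, and had a V5 Olig2 event of its own.

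The 200 bp threshold left few regions close to it. In the regions left out, 8105 of 8237 had an event of another list within 100 bp of a V5 Olig2 event, and 132 had a nearest gap over 100 and up to 200 bp. Of the V5-only regions, 102 had a gap over 200 and up to 300 bp to another list. Median IP reads were 31.6 just inside and 33.7 just outside.

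Just outside the threshold, the event at 103945354 on chromosome 7 had 22.9 IP reads and lay 1 bp beyond the threshold from a native event with 61.7. That at 34037247 on chromosome 10 had 31.8 IP reads, with a Flag Hoxc9 event 202 bp away. The event at 54665737 on chromosome 4 had 40 IP reads beside a native event of 119.3, also 202 bp away. Those at 17209245 on chromosome 16 and 113160704 on chromosome 11 had 24 and 49 IP reads, with gaps of 203 bp to a native and 204 bp to a V5 Hoxc9 event. Near the first of these 2 a V5 Olig2 event of 77.4 IP reads lay 204 bp away, beside the native one.

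Just inside it, the V5 Olig2 event at 23790165 on chromosome 6 had 25.9 IP reads and lay 200 bp from a native event. At 127461832 on chromosome 3 a V5 Olig2 event of 16 IP reads had a Flag event 197 bp away. At 90387518 on chromosome 12 one of 21 IP reads had a V5 Hoxc9 event 196 bp away. The events at 19535444 on chromosome 7 and 111960484 on chromosome 5 had 21.8 and 45.1 IP reads, and native events 195 and 194 bp away. Reads on both sides of the threshold covered a similar range.

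Most V5-only regions stood away from native Olig2 binding, while a minority stood beside it. The median distance to the nearest native event was 28690 bp. A native event lay within 1 kb of 258 regions (12.6%, 11.2 to 14.1), within 10 kb of 649 (31.6%, 29.6 to 33.7) and over 50 kb from 750 (36.5%). Among regions of the V5 Hoxc9 list alone, 3.91% had a native Olig2 event within 1 kb (3.12 to 4.88). Among regions of the native list alone, 7.40% had a V5 Olig2 event within 1 kb (6.70 to 8.17). The last share is set against the shorter V5 list, and the difference in length was not corrected.

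The 258 V5-only regions beside a native event were set beside the 750 farthest from one. Their median was 34.1 IP and 2.1 control reads, against 32.4 and 2.1 in the 750 regions over 50 kb away. A fold of 10 or more was listed for 74% and 81.6%, in the same order. IP reads were not whole numbers, by more than 0.05, in 73.6% of the 258 and in 26.8% of the 750. As background, callers of this kind share reads out between neighbouring events. Among V5-only regions with another V5 Olig2 event within 1 kb, 80.2% were not whole, and among those without one 28.8%. In shared Olig2 regions these shares were 77.3% and 21.2%.

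At 179 of the 258, the region of the nearest native event also held a V5 Olig2 event, so the V5-only event was an additional one beside a region of both Olig2 lists. At 140 of the 258 (54.3%) the native event lay closer to the V5 event of its own region, and that V5 event had more IP reads than the V5-only event. At the 79 of the 258 (30.6%) that were not among the 179, the native event had no V5 Olig2 event within its region. In those places each list had an event that the other lacked, at a median distance of 438 bp.

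**Figure D4:**
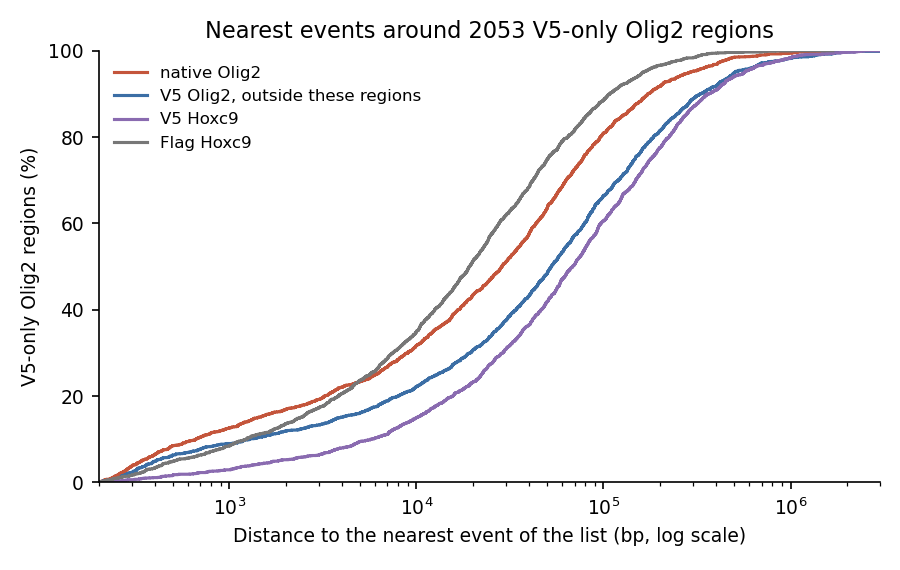
Cumulative percent of the 2053 V5-only regions (vertical axis) with the nearest event of each list within the distance on the horizontal log axis, which starts at the 200 bp that the rule fixes. Native Olig2 events lie within 10 kb of 31.6% and Flag Hoxc9 events, from the longest list, within 10 kb of 34.8%.

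Over all IP reads, similar shares of V5-only and shared Olig2 regions, which lack a Hoxc9 event by the same rule, had a Hoxc9 event within 10 kb. A Flag Hoxc9 event lay within 10 kb of 34.8% of V5-only regions (32.8 to 36.9), 36.7% of shared Olig2 regions (35.4 to 38) and 36.3% of regions of the native list alone (34.9 to 37.6). For V5 Hoxc9, recovered with the same anti-V5, the shares within 10 kb were 15% (13.5 to 16.6), 15.6% (14.6 to 16.5) and 14.3% (13.3 to 15.3). Among regions with under 45 IP reads, 14.2% of V5-only and 14.1% of shared Olig2 regions had a V5 Hoxc9 event within 10 kb. Below that limit the groups still differed in IP reads.

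Close to the regions the stronger V5-only regions gave higher values, mostly with overlapping intervals. With 45 or more IP reads, 13 of 380 V5-only regions had a V5 Hoxc9 event within 500 bp (3.42%, 2.01 to 5.76), against 56 of 3395 shared Olig2 regions (1.65%, 1.27 to 2.14). For Flag Hoxc9 events within 500 bp the shares were 7.89% (5.59 to 11) and 5.18% (4.49 to 5.98). Within 2 kb, a Flag Hoxc9 event lay near 77 of 380 V5-only regions (20.3%, 16.5 to 24.6) and 505 of 3395 shared Olig2 regions (14.9%, 13.7 to 16.1), with intervals clear of each other. For V5 Hoxc9 within 2 kb the shares were 7.37% (5.15 to 10.4) and 5.04% (4.35 to 5.82). Within 1 kb the Flag shares were 12.1% (9.2 to 15.8) and 9.69% (8.74 to 10.7). For V5 Hoxc9 within 1 kb they were 4.74% (3.02 to 7.36) and 3.09% (2.56 to 3.73). The intervals overlapped in these 1 kb shares, in both 500 bp shares and in the V5 Hoxc9 shares within 2 kb. Within 10 kb the Flag shares were 41.1% (36.2 to 46.1) and 38.8% (37.2 to 40.4), with overlapping intervals. The stronger V5-only regions thus had higher shares at each of these distances, and none of these differences was tested. The groups were not matched in IP reads: 30 of the 380 V5-only and 1349 of the 3395 shared Olig2 regions had 80 or more. Under 45 IP reads, a Flag Hoxc9 event lay within 2 kb of 12% of V5-only (10.5 to 13.7) and 12.8% of shared Olig2 regions (11.5 to 14.4). For V5 Hoxc9 these shares were 4.72% (3.81 to 5.85) and 4.23% (3.44 to 5.2). The groups under 45 IP reads were not matched either: 538 of 1673 V5-only and 235 of 2032 shared Olig2 regions had under 25.

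Another 306 regions had a V5 Olig2 event and no native one but did hold a Hoxc9 event, and so were not V5-only. The V5-only regions were 87% of the 2359 V5 Olig2 regions without a native event (85.6 to 88.3). A V5 Hoxc9 event was present in 126 of the 2359 (5.34%, 4.50 to 6.32). Their median was 31.4 IP reads and 1.05 control reads, beside 32 and 2.1 in V5-only regions. Of these 126, 97 also held a Flag Hoxc9 event and 29 were held by the V5 lists alone. The 126 regions were thus of similar IP reads to the V5-only regions and had a lower median of control reads. Of all 10290 V5 Olig2 regions, 5427 (52.7%) held a native and no Hoxc9 event, and 2053 (20%) were V5-only. A native and a V5 Hoxc9 event were held by 971 with Flag Hoxc9 (9.44%) and 77 without (0.748%). The 5.34% thus lay below the share with a V5 Hoxc9 event over all V5 Olig2 regions. Regions with and without a native event were not matched in IP reads.

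V5-only regions were spread over all 20 chromosomes used. They made up between 16.1% (chromosome 1) and 25.7% (X) of the V5 Olig2 regions of a chromosome. On chromosome 1, 119 of 740 regions were V5-only (13.6 to 18.9), and this interval lay below the share over all chromosomes. On chromosome 10 the share was 23.5%, with the lower bound of its interval just above the share over all. The intervals of the other 18 included it. On X, 43 of 167 were (19.7 to 32.9). V5 Olig2 regions on X were weaker as a whole, with a median of 42.8 IP reads against 47.8 on the autosomes. X also had fewer control reads, with medians of 1 and 3.1. In bands of IP reads the V5-only share on X was lower than on the autosomes in 3 of 6 and higher in 3. It was lower at 15 to under 25 IP reads (48.4%, 32 to 65.2, against 57.8%, 54.5 to 61) and close to it at 25 to under 35 (37.5% against 36.2%). At 35 to under 45 it was 32.1% (17.9 to 50.7) against 24.7% (22.9 to 26.6). At 80 or more, 2 of 26 regions on X were V5-only (7.69%, 2.14 to 24.1) against 28 of 2272 on the autosomes (1.23%, 0.854 to 1.78). Those 2 are the control-rich pair at 166425729 and 166428105.

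**Figure D5:**
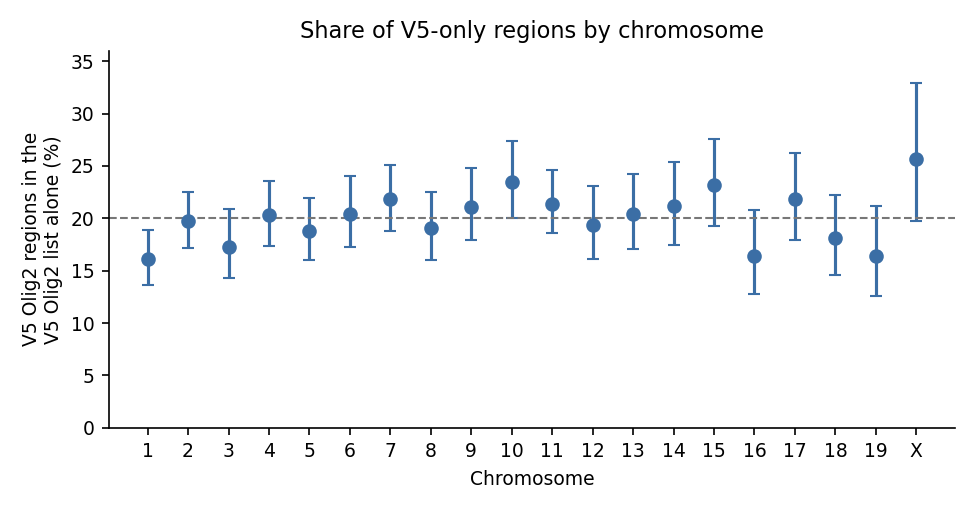
Percent of the V5 Olig2 regions of each chromosome that were V5-only, with Wilson 95% intervals; the dashed line is the share over all V5 Olig2 regions. Chromosome 1 lies lowest (16.1%) and X highest (25.7%).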

How the data were processed

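Reads were aligned with Bowtie 0.12.5 to mm9, per the submitters' processing notes. The deposited interval lists name the events GPS_PEAK. For the event caller, neither version, settings nor control library is given in the sources used here. IP and control reads are estimated counts as deposited by the authors and are not all whole numbers, going by the headers and values. The fold (ratio) of IP over control, the −log10 of p and q, and 2 shape scores are also as deposited by the authors, and 1 of the scores was not used. Where control reads are listed at 0, most folds are given as 9999.9.

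Events within 200 bp were chained into regions, and a region took the values of its event with most IP reads. The chaining was tested on simulated data, where 4000 of 4000 planted regions were recovered. The members, lists and named regions were chosen with earlier results of these data known. The named regions are the 10 with most IP reads, the 5 with most events, the 5 with most control reads, the 3 with fewest IP reads and the 5 on either side of the 200 bp threshold. Motifs, sequences and nearby genes need mm9 sequence and annotation, which were not used here. Alternatives were other gaps, lists, thresholds and distances. Python 3.11.15, numpy 2.4.6, pandas 2.3.3 and matplotlib 3.10.9 were used.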

Additional observations from a re-analysis of the deposited data

Results flagged for a closer look

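On unplaced contigs the V5 Olig2 list held 4 further events that no comparison used. The strongest had 83 IP and 2.1 control reads (fold 40).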

How the results depend on the processing

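Of 23 alternatives run for 5 results, 17 stayed within the interval of the value given or, for the count of regions, within 1.5 times of it. The count of V5-only regions was 2334 with a gap of 100 bp, 1647 with 1000 bp and 2377 with the Olig2 lists alone. It moved to 914 when events in every list had to reach a −log10 q of 5. Of those 914, 238 were V5-only over all events and 676 were not, because their region over all events also held an event of another list. At 651 of the 676 that region held a native event, with a median of 27 IP reads at the strongest. Whether each such event itself fell below the minimum was not counted. A fold of 5 was reached by 99.1% and a fold of 20 by 46.6% of V5-only regions. An event of another list lay within 2 kb of 25.7% and within 50 kb of 88.6%, and a native event within 10 kb of 31.6%, against 50.9% for any of the other 3 lists within 10 kb. These follow from the stricter or wider settings. No paired analysis was possible because each condition had 1 list. Other settings for E-box content and distance to transcription starts were not run, since mm9 sequence and annotation were not used here. Depth is unknown, so whether a weak region was missed in another list or not bound there was not detectable.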

Other observations

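Most V5-only regions had no other V5-only region within 10 kb. The spacing of other sets of regions was not measured, so whether V5-only regions stood closer together or farther apart was not tested. The median distance to the next V5-only region was 243700 bp, and 180 of the 2053 had another within 10 kb (8.77%). Joined at 10 kb, they formed 81 pairs and 6 groups of 3. On chromosome 6, 3 V5-only regions between 39823206 and 39825579 had from 35.1 to 72.3 IP reads and from 2.2 to 12.3 control reads, with 1 native event within 10 kb of the group. On chromosome 7, 3 regions between 136124537 and 136125377 spanned 841 bp, with 33.6 to 42.9 IP reads and at most 2 control reads, and again 1 native event within 10 kb. In the group from 29695643 to 29698974 on chromosome 2, V5 Olig2 had 8 events and native Olig2 5 within 10 kb. These groups were picked after their values were seen.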
